A study of Mus musculus with 23 samples.

Results

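Laminins and integrins are the 2 families of subunits described here, as measured by RNA sequencing of mouse hearts. Members were taken by gene symbol: the laminin chains Lama, Lamb and Lamc with a number, and the integrin subunits Itga and Itgb. By this rule 37 of 43154 features were members and 36 of them are described. The 23 with an FPKM (fragments scaled by transcript length and by library size) of at least 1 in at least 3 of 23 libraries are reported in full, 7 laminins and 16 integrins. The other 13 stayed under that level.

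Hearts came from C57BL/6 mice that were wild type (WT) or carried a calcineurin transgene (CnATg), which the study's design text names with the prefix MHC, the myosin heavy chain promoter of heart muscle. They were given vehicle or the compound JIB-04, which blocks histone demethylases of the Jumonji family, at 50 mg/kg on 3 days of each week. At day 45 there were 3 libraries each of WT with vehicle, WT with JIB-04, CnATg with vehicle and CnATg with JIB-04. At day 77 there were 4 libraries each of CnATg with vehicle and CnATg with JIB-04 and 3 of WT with JIB-04, and a WT vehicle group of that age was not analysed here. Treatment began at week 4 for day 45 and at week 5 for day 77, so age and week of start cannot be told apart. For WT mice on JIB-04 the week of start is not given, and the design text speaks of vehicle only for WT, whereas the labels of single samples put JIB-04 there. The labels do not say that each library is a separate mouse, so p-values measure the spread between libraries. They name no batch, and do not say whether the WT JIB-04 libraries were made together with the others. In the 2 genotype comparisons with JIB-04, such a set of libraries and the genotype cannot be told apart. In the drug comparison of WT hearts at day 45, such a set and JIB-04 cannot be told apart. It would also enter the interaction of drug with genotype and the mean of the drug differences.

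Laminins are large secreted proteins, each a trimer of an alpha, a beta and a gamma chain, which form the sheet of basement membrane around heart muscle cells and vessels. Integrins are surface receptors made of an alpha and a beta subunit that tie this matrix, and collagen or fibronectin, to the cytoskeleton. In heart muscle the alpha 7 and beta 1 subunits pair as a laminin receptor at the costamere, the site where the sarcomere is anchored to the membrane.

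CnATg hearts held more Itga7, Itgb1, Itga5, Itga9 and Itgav RNA than WT hearts, and less Itga6, Itga1, Lamb1 and Lamb3. These differences were called in 3 comparisons that share no library. Those at day 45 came from the same fit and share its estimate of spread. Itga11 was called higher too, but reached 1 FPKM in CnATg hearts alone. Under some of the alternatives given below, Itgav at day 77, Itga1 at day 45 and Lamb1 with JIB-04 at day 45 lost their calls. No member was called for JIB-04 or in any single age difference. In the mean of the 3 age differences, a contrast added after the single ones had been seen, 6 of 23 members were lower at day 77, beside 1.15% of all features. Among these, Itga8 reached 1 FPKM at day 45 alone. Without it 5 of 22 members were lower, beside 1.15% of the features at that level at both ages. Itga3, Itga5 and Itga9 were no longer called after a rescaling described below.

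Calcineurin acts through NFAT transcription factors, which bind DNA with the core GGAAA. The RefSeq table of promoters (build GRCm38.p6, 250 bases before to 50 after a start) held 18 of the 23 reported members, over 21 windows. Each window was searched for GGAAA on both strands (TTTCC on the printed strand), with overlaps counted. It occurred in 12 of the 21 windows, beside 61.34% of all 32851 windows of that length. The 4 windows below are shown because they belong to 2 members that were higher (Itga5, Itgb1) and 2 that were lower (Itga1, Lamb1) in CnATg, and capitals mark the core. They lie at chr15:103366742-103367041 on the minus strand, chr8:128685404-128685703 on the plus strand, chr13:115101915-115102214 on the minus strand and chr12:31265043-31265342 on the plus strand.
Itga5: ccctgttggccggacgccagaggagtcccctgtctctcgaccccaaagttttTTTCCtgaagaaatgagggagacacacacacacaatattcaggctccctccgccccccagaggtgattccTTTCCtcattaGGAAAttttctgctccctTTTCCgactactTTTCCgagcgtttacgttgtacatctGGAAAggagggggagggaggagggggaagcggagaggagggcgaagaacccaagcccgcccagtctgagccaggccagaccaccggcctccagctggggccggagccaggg
Itgb1: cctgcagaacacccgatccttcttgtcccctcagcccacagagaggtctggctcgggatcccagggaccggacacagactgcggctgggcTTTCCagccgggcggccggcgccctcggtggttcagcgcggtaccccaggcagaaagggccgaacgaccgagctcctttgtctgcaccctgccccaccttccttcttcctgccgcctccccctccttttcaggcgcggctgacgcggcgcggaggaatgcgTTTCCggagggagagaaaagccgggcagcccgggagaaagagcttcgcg
Itga1: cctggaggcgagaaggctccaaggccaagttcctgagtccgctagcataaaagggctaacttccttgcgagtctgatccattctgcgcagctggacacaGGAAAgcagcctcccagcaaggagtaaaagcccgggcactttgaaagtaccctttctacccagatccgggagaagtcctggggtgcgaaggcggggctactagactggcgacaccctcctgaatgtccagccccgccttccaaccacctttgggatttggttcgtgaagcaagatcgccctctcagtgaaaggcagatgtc
Lamb1: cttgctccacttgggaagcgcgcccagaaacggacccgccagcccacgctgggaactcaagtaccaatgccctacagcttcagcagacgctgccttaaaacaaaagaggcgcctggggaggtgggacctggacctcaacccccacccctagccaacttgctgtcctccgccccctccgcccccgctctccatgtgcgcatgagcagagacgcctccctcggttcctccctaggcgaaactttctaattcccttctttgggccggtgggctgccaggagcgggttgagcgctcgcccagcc

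The Itga5 window held 6 matches, the most of the 21 windows of reported members. Over all windows 0.12% held at least 6, a share for a single window and not for the largest of many. The Itgb1 window held 2, the Itga1 window 1 and the Lamb1 window 0. Of the other members with a window that were called for genotype in all 3 comparisons, Itga9, Itga11 and Itgav, which were higher, had 0 in their windows, and Lamb3, which was lower, had 2 and 1 in its 2 windows. Itga6, Itga7, Itgb2, Lama4 and Lamc1 had no window. The Itga9 window begins at 118711442, well inside the deposited plus-strand locus that starts at 118606690. Both Lamb3 windows, from 193301744 and 193301993, likewise lie inside a plus-strand locus that starts at 193207699. These windows are therefore not at the start of the deposited loci. A match in these letters is a description and not a binding site, and binding was not measured.

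Levels were set side by side over all 23 libraries. Itgb1, the beta 1 subunit that pairs with most alpha subunits, had the highest median (238 FPKM), followed by the laminin beta 2 chain Lamb2 (114), Itga7 (85.8), Itgb5 (48.2) and the laminin gamma 1 chain Lamc1 (43.4). The 3 laminin alpha chains of the heart stood close together, with medians of 23.5 FPKM for Lama5, 19.6 for Lama4 and 17.9 for Lama2, and their ranges overlapped. The lowest reported members were Itga8, at 1 FPKM or more in 6 libraries, and Itgb7, in 3. No member outside the reported set reached 1 FPKM in any library, and the highest of them came to 0.891 FPKM (Itga10).

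**Figure D1:**
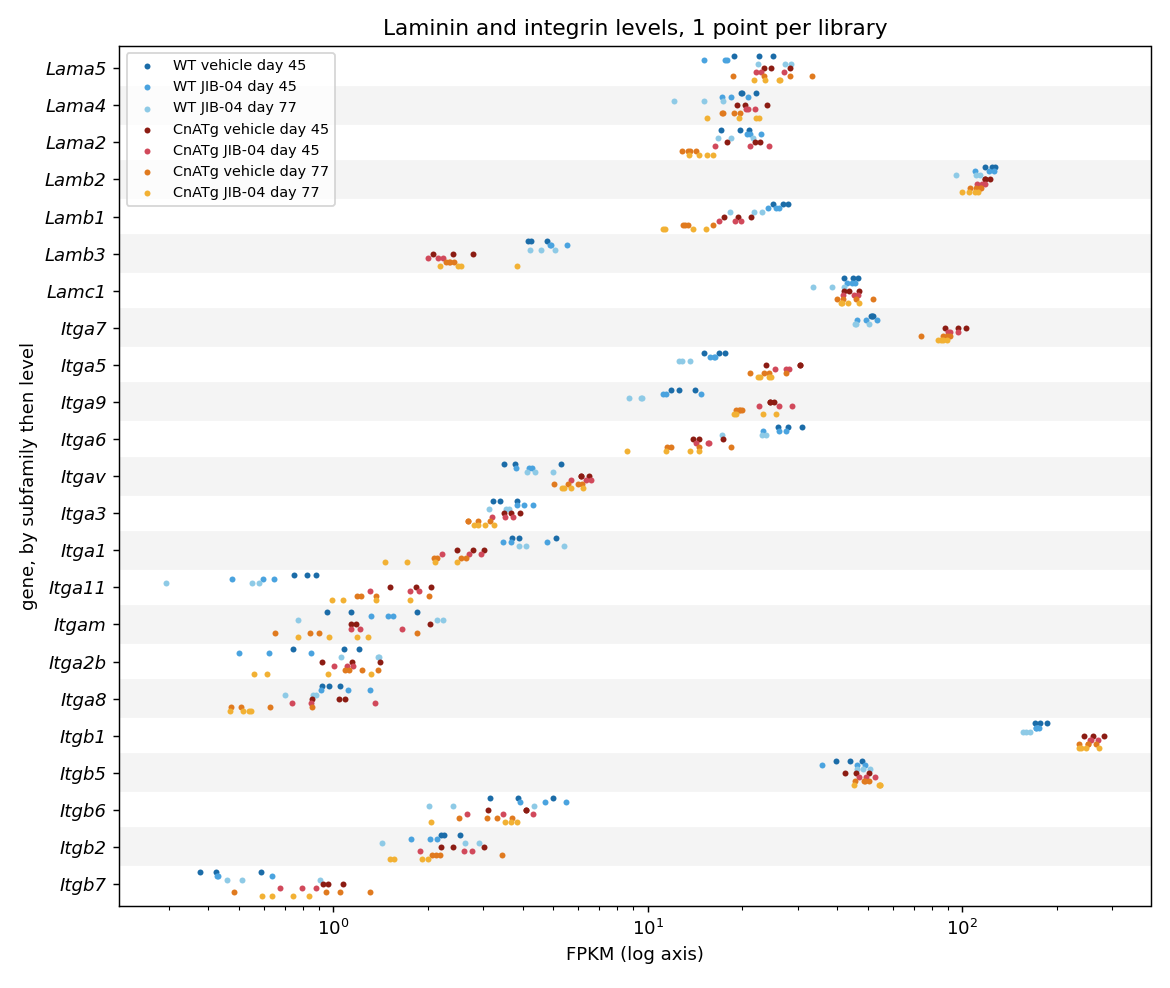
FPKM on a log axis of the 23 reported laminins and integrins, 1 point per library, coloured by group (blue WT, red and orange CnATg). Itga7, Itga5, Itga9, Itgb1 and Itga11 lie higher in every CnATg library than in every WT library, and Lamb3 and Itga1 lie lower. Itga11 reached 1 FPKM in CnATg libraries alone. How many of all features separate the genotypes in this way was not counted.

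Facts of the libraries that touch these values were as follows. Ppp3ca, the calcineurin A alpha gene, lay at 1415 to 1987 FPKM in CnATg and at 23.6 to 29.0 FPKM in WT libraries, and so separated the genotypes as labelled. Mitochondrial genes took 15.5 to 17.4% of summed FPKM in CnATg and 20.8 to 27.1% in WT, with WT JIB-04 day 45 replicate 2 lowest among WT. Heart muscle markers were abundant (8 of 8 listed, summed 13360 to 15585 FPKM in CnATg and 16818 to 19704 in WT). All 12 endothelial markers together summed to 217 to 350.1 FPKM in CnATg and 395 to 478 in WT, the 10 fibroblast markers to 475 to 704 and 359 to 451, and the 9 smooth muscle and pericyte markers to 379.9 to 678 and 266 to 405. That last sum holds Acta2, at 31.7 to 487 FPKM over all libraries, and its genes went both ways. With vehicle at day 45, 2 of 8 tested were higher and 3 lower, beside 23.3% and 15.9% of all features. With JIB-04 it was 2 and 4 of 8 at day 45, beside 20.5% and 18.1%. At day 77 it was 2 and 4 of 9, beside 19.9% and 22.1%. In whole hearts, fewer cells of a type and less RNA per cell cannot be told apart, and the part of cell makeup in the results was not tested.

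The first question was what the transgene did to laminin and integrin RNA, asked with vehicle at day 45, with JIB-04 at day 45 and with JIB-04 at day 77. Differences are CnATg minus WT on the deposited log2(FPKM + 1) scale, which understates changes of low genes, and a call is limma's adjusted p under 0.05 over all features tested. With vehicle, 6 of 22 tested members were higher and 4 lower, beside 23.3% and 15.9% of all 13289 features. With JIB-04 at day 45 there were 7 higher and 4 lower of 22, beside 20.5% and 18.1%. With JIB-04 at day 77 there were 7 higher and 5 lower of 21, beside 19.9% and 22.1% of 13212. The members' median difference was 0.08, 0.08 and 0.00, beside 0.07, 0.02 and -0.01 over all features. By family, 6 integrins were higher and 2 lower in each of the 3 comparisons, or 5 and 2 without Itga11. Itga11 passed the level through CnATg libraries alone. Over features at 1 FPKM in libraries of both genotypes, 5, 6 and 6 members were higher, beside 22.6%, 19.8% and 18.7% of features. Among the 7 laminins, 0, 1 and 1 were higher and 2, 2 and 3 lower.

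The laminin receptors of muscle come first. Itgb1 lay at 281, 243 and 261 FPKM in the CnATg and at 177, 186 and 169.8 FPKM in the WT vehicle hearts of day 45. Every CnATg value was above every WT value, and the log2 difference was 0.55 (SE 0.06, limma adjusted p = 2.1e-05). With JIB-04 it was 0.59 at day 45 and 0.63 at day 77, and over all libraries Itgb1 ran from 234 to 281 FPKM in CnATg and from 156 to 186 in WT. Here and for the members below, the share of all features without overlap between genotypes was not counted. The gene lies on chromosome 8, 128685654 to 128733200 (GRCm38).

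Its muscle partner moved the same way. Itga7 lay at 103, 87.95 and 97.2 FPKM in the CnATg and at 51.8, 51.7 and 51.2 FPKM in the WT vehicle hearts of day 45. The genotypes stood far apart relative to the scatter inside each, with a log2 difference of 0.88 (SE 0.07, limma adjusted p = 2.0e-06), 0.89 with JIB-04 at day 45 and 0.86 at day 77. Itga7, on chromosome 10, 128933813 to 128958277, did not overlap between genotypes in any library, with 73.9 to 103 FPKM in CnATg and 45.4 to 53.5 in WT.

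Itga6, the alpha subunit of a laminin receptor of vessels and epithelia, went the other way. Itga6 lay at 14.5, 13.9 and 17.3 FPKM in the CnATg and at 25.98, 30.9 and 27.8 FPKM in the WT vehicle hearts of day 45. All 3 CnATg values were under all 3 WT values (log2 difference -0.85, SE 0.09, limma adjusted p = 3.2e-05). With JIB-04 the difference was -0.72 at day 45 and -0.79 at day 77, where 8.60, 14.6, 11.4 and 13.6 FPKM in CnATg stood beside 23.8, 17.3 and 23.1 in WT. Over all libraries the genotypes overlapped a little. The highest CnATg values were 18.3 FPKM (vehicle, day 77, replicate 2) and 17.303 FPKM (vehicle, day 45). Both were above the lowest WT value, 17.265 FPKM (JIB-04, day 77, replicate 2). Itga6 lies on chromosome 2, 71745616 to 71858416. As a share of the summed endothelial markers, its median was 5.13% in CnATg and 5.44% in WT, with overlapping ranges.

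The balance of these 2 alpha subunits differed by genotype. The ratio of Itga7 to Itga6 FPKM was 4.03 to 10.4 in CnATg (median 6.35, 14 libraries) and 1.67 to 2.92 in WT (median 1.99, 9 libraries), with no overlap. Itga7 made up a median of 52.8% of the summed FPKM of all alpha subunits in CnATg and 41.03% in WT. For Itga6 the shares were 8.18% and 20.97%, so that by median it ranked next to Itga7 in WT, but behind Itga5 (14.8%) and Itga9 (12.8%) in CnATg. A share can move because another member of the sum moves. Itga3, a further laminin-binding alpha subunit, was not called: its differences were 0.06, -0.18 and -0.15.

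**Figure D2:**
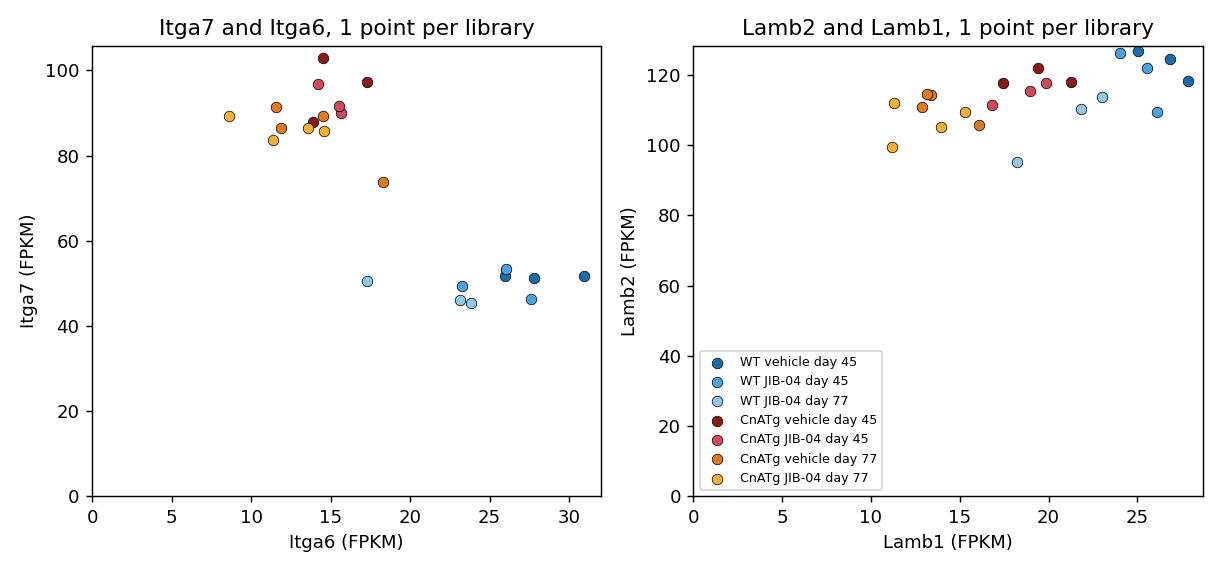
FPKM of Itga7 against Itga6 (left) and of Lamb2 against Lamb1 (right), linear axes, 1 point per library, coloured by group. In the left panel CnATg libraries lie above WT libraries and mostly to their left, with a small overlap in Itga6. In the right panel the levels of each gene overlap between genotypes, and the ratio of Lamb2 to Lamb1 does not.

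Among receptors for fibronectin and related ligands, Itga5, Itga9 and Itgav were called higher, and Itgb5, Itgb6 and Itga8 were not called. Itga5 lay at 30.5, 23.8 and 30.4 FPKM in the CnATg and at 17.6, 15.1 and 16.9 FPKM in the WT vehicle hearts of day 45. Itga5, the alpha subunit of the classical fibronectin receptor (on chromosome 15, 103344289 to 103366763), was above WT in every CnATg library of every group, and the log2 difference was 0.73 (SE 0.09, limma adjusted p = 8.6e-05), 0.71 and 0.81 in the 3 comparisons in turn. Itga9 lay at 25.2, 24.4 and 24.5 FPKM in the CnATg and at 12.6, 14.1 and 11.8 FPKM in the WT vehicle hearts of day 45. Itga9, which binds tenascin and osteopontin, differed by 0.89 (SE 0.11), 1.00 and 1.13, with limma adjusted p of 6.5e-05, 3.0e-05 and 4.3e-06. Its CnATg range over all libraries was 18.8 to 28.7 FPKM and its WT range 8.73 to 14.7, so the genotypes did not meet. Itga9 lies on chromosome 9, 118606690 to 118901003. Its annotated locus overlaps the processed pseudogene Gm10157 (mean 52.5 FPKM) on the other strand, with 0 exon bases shared.

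Itgav, the alpha subunit of vitronectin and TGF-beta binding integrins, rose less. Itgav lay at 6.13, 6.50 and 6.14 FPKM in the CnATg and at 3.48, 5.30 and 3.78 FPKM in the WT vehicle hearts of day 45. The groups did not overlap there, although 1 WT heart came close. The difference was 0.50 (SE 0.11, limma adjusted p = 0.0044), 0.50 with JIB-04 at day 45 and 0.28 (adjusted p = 0.021) at day 77. The call at day 77 was lost when any one of CnATg replicate 2, WT replicate 1 or WT replicate 2 was left out (adjusted p 0.057 to 0.080). Of its beta partners, Itgb1 was called higher (above), Itgb3 and Itgb8 stayed under the reported level, and Itgb5 and Itgb6 were not called. Itgb5 lay at 42.4 to 54.9 FPKM in CnATg and 35.9 to 50.9 in WT, and Itgb6 at 2.04 to 4.31 and 2.01 to 5.49, with wide overlap in both. Without CnATg replicate 3, Itgb5 was called higher at day 77 (0.17, adjusted p = 0.035). Itga8, a receptor subunit of mesenchymal cells, was tested at day 45 alone and differed there by 0.01 with vehicle and -0.10 with JIB-04.

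The collagen receptors split. Itga11, a collagen-binding subunit of fibroblasts (on chromosome 9, 62677826 to 62783982), lay at 1.83, 2.04 and 1.51 FPKM in CnATg and 0.748, 0.824 and 0.883 in WT with vehicle at day 45, and differed by 0.62 (SE 0.11, limma adjusted p = 0.0012), 0.74 and 0.63. It was at 1 FPKM or more in 13 CnATg libraries and no WT library, so it passed the level through CnATg hearts alone and had to differ to be tested. With no such level set, its limma adjusted p was 0.0038, 0.0013 and 0.027. As a share of the summed fibroblast markers, its median was 0.239% in CnATg and 0.144% in WT, and the ranges overlapped. Itga1 lay at 2.47, 2.79 and 3.02 FPKM in the CnATg and at 3.70, 5.10 and 3.90 FPKM in the WT vehicle hearts of day 45.

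Itga1, the collagen-binding subunit of vessels and smooth muscle (on chromosome 13, 114958079 to 115101964), fell by 0.47 (SE 0.13, limma adjusted p = 0.014), by 0.45 with JIB-04 at day 45 and by 0.90 at day 77. At day 77 its CnATg values of 1.46, 2.47, 2.11 and 1.71 FPKM were far from the WT values of 4.09, 3.89 and 5.42. The day 45 call with vehicle was lost without WT replicate 2 or CnATg replicate 1 (adjusted p 0.057 and 0.056), and that with JIB-04 without CnATg replicate 2 or WT replicate 2 (adjusted p 0.072 and 0.069). Relative to summed endothelial markers, Itga1 had a median of 0.887% in CnATg and 0.927% in WT. The kit kept no strand, and Itga1 shares 685 exon bases with the gene model Gm49395 in the GENCODE M21 annotation, so those reads cannot be told apart. The annotated Itga1 locus also overlaps Pelo (mean 13.8 FPKM) on the same strand, with 0 exon bases shared.

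Integrins of blood and immune cells were not called for genotype. Itgam and Itgb2, which pair on macrophages and neutrophils, lay at 0.651 to 2.03 and 1.51 to 3.44 FPKM in CnATg and at 0.774 to 2.22 and 1.43 to 2.91 in WT. Their differences ran from -0.36 to 0.19 over the 3 comparisons. Itga2b, the platelet subunit, differed by 0.10, 0.34 and -0.30, with both signs and no call. Some of these results turned on the setting. With every library kept, Itga2b was called higher with JIB-04 at day 45 when the variance prior did not follow level (0.34, adjusted p = 0.036) and after the rescaling described below (0.44, adjusted p = 0.027). At day 77 Itga2b was called lower without CnATg replicate 4 (-0.42, adjusted p = 0.021), and Itgam (-0.64, adjusted p = 0.031) and Itgb2 (-0.46, adjusted p = 0.044) without WT replicate 1. At day 45 with JIB-04, Itga2b was called higher without WT replicate 1 (0.42, adjusted p = 0.042). The 12 macrophage and monocyte markers summed to 173 to 336 FPKM in CnATg and 189 to 328 in WT, and the 6 platelet markers to 14.5 to 36.9 and 21.5 to 29.3. Itgam shares 3450 exon bases with Gm49368, so its value is uncertain. Itgb7, a lymphocyte subunit, was too low for the fits of single ages and lay at 0.483 to 1.31 FPKM in CnATg and 0.376 to 0.907 in WT. With no level set for the test, Itgb7 was called higher with vehicle at day 45 (0.44, limma adjusted p = 0.0087).

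**Figure D3:**
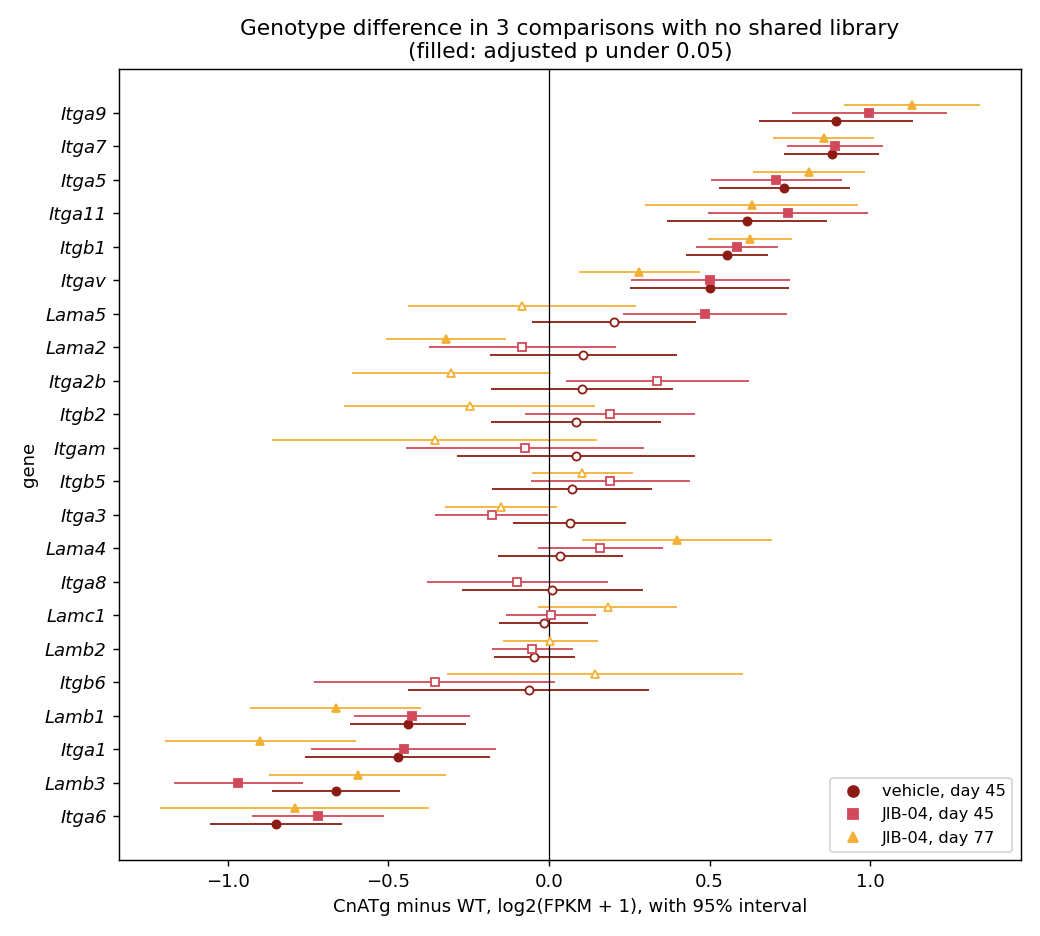
CnATg minus WT on the log2(FPKM + 1) scale with 95% intervals, for each member tested, in the 3 genotype comparisons. These share no library, but those at day 45 share a fit and its estimate of spread. Filled symbols have a limma adjusted p under 0.05. Itga9, Itga7, Itga5, Itga11, Itgb1 and Itgav lie right of 0 and Lamb1, Itga1, Lamb3 and Itga6 left of 0 in all 3.

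Among laminins, the gamma 1 chain was not called. Lamc1, the gamma chain common to most laminins, lay at 43.5, 41.9 and 46.8 FPKM in CnATg and 46.7, 45.01 and 41.96 in WT with vehicle at day 45, and its differences were -0.02, 0.01 and 0.18, none called. The 95% interval with vehicle was -0.16 to 0.12.

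Lamb3, the beta 3 chain of laminins of epithelia (on chromosome 1, 193207699 to 193343878), lay at 2.07, 2.40 and 2.78 FPKM in CnATg and 4.79, 4.24 and 4.17 in WT with vehicle at day 45. It was lower in every CnATg library than in every WT library, with log2 differences of -0.66 (SE 0.09, limma adjusted p = 1.6e-04), -0.97 and -0.60 in the 3 comparisons. The annotated locus spans G0s2 (mean 53.3 FPKM) and Hsd11b1 (4.87 FPKM) on the other strand, with 0 exon bases shared. Lama3, the alpha 3 chain, stayed under the reported level at 0.255 to 0.533 FPKM in CnATg and 0.309 to 0.499 in WT.

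Lamb1, the beta chain of laminins of vessels and of the developing heart, fell. Lamb1 lay at 17.5, 19.4 and 21.3 FPKM in the CnATg and at 25.03, 27.8 and 26.9 FPKM in the WT vehicle hearts of day 45. The groups did not overlap (log2 difference -0.44, SE 0.08, limma adjusted p = 0.0013), and the difference was -0.43 with JIB-04 at day 45 and -0.66 at day 77. Lamb1 lies on chromosome 12, 31265234 to 31329644. Relative to summed endothelial markers its median was 5.88% in CnATg and 5.36% in WT, with overlapping ranges. Lamb2, the beta chain of the mature muscle basement membrane, differed by -0.05, -0.05 and 0.00 with no call, and its interval with vehicle was -0.17 to 0.08. The ratio of Lamb2 to Lamb1 ran from 5.55 to 9.90 in CnATg hearts and from 4.19 to 5.26 in WT hearts, without overlap.

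The alpha chains showed no call shared by the 3 comparisons. Lama5, the alpha chain of adult vessels, was higher with JIB-04 at day 45 (log2 0.49, limma adjusted p = 0.0063). There 22.1, 22.97 and 27.1 FPKM in CnATg stood above 17.6, 17.9 and 15.1 in WT, and the values with vehicle and at day 77 were 0.20 and -0.08. Lama4, an endothelial alpha chain, was higher with JIB-04 at day 77 (log2 0.40, adjusted p = 0.033). That call was lost without any one of CnATg replicates 2, 3 and 4 and WT replicates 2 and 3 (adjusted p 0.059 to 0.14). Lama2, the alpha chain of muscle laminin whose loss causes muscular dystrophy, fell by 0.32 at day 77 (adjusted p = 0.010). Its values there were 15.4, 16.1, 13.5 and 14.6 FPKM in CnATg and 16.8, 21.6 and 18.4 in WT, and at day 45 its differences were 0.11 and -0.08.

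Scaling bears on the smaller differences. FPKM sums include the mitochondrial genes, whose share differed by genotype. Leaving out mitochondrial and hemoglobin genes and rescaling the rest moved the median of all features to 0.16, 0.23 and 0.19 in the 3 comparisons. It took away the calls of Lamb1 (adjusted p = 0.18) and Itga1 (adjusted p = 0.096) with JIB-04 at day 45 and that of Lama2 at day 77 (adjusted p = 0.32). It added calls of higher level for Itga2b, Itgb2, Itgb5, Lama4 and Lamc1 at day 45 with JIB-04, and for Itgb5, Lamb2 and Lamc1 at day 77. Under it 38.2% of all features were higher at day 45 with JIB-04 and 41.1% at day 77. One library stood out in this rescaling. WT JIB-04 day 45 replicate 2 had a summed FPKM of 852688 and a rescaling factor of 1.311. Replicates 1 and 3 of its group had sums of 704090 and 736184 and factors of 1.038 and 1.076. How far the rescaled results with JIB-04 at day 45 rest on that library was not tested. Each genotype call listed above kept its direction under every alternative run. With vehicle, 59.5% of all called features were higher as deposited, 48.7% with median-ratio scaling, 45.8% with quantile normalization and 73.4% with the rescaling. With JIB-04 the rescaling gave 83.3% at day 45, in place of 53.2%, and 77.6% at day 77, in place of 47.4%.

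Members under the reported level were not tested in the fits above and are given as values. Lamc3, the gamma 3 chain, lay at 0.087 to 0.666 FPKM in CnATg and 0.020 to 0.075 in WT, with no overlap. Itgae, an integrin of lymphocytes in epithelia, lay at 0.128 to 0.472 and 0.035 to 0.118, again apart. Itgb8, a TGF-beta activating subunit, had 0.210 to 0.370 and 0.103 to 0.225 FPKM, and Itgax, of dendritic cells, 0.246 to 0.779 and 0.099 to 0.501, both with overlap. Itga10, Itga2, Itga4, Itgad, Itgal, Itgb3, Itgb4, Lama1 and Lama3 overlapped too, and Lama1 was at 0.016 FPKM or less in every library. With no level set for the test, Lamc3, Itgax and Itgb8 were called higher with vehicle at day 45 (log2 0.47, 0.42 and 0.19, limma adjusted p 0.010, 0.013 and 0.044), and Lamc3 with JIB-04 at day 77 (0.23, adjusted p = 0.028).

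Genes that work beside laminins and integrins were counted from 4 lists, for the genotype difference with vehicle at day 45. The lists were chosen with earlier results of these data known, so their counts are a description and not an independent test. Of 24 non-integrin laminin receptors and dystrophin complex genes, which anchor laminin to muscle by a second route, 10 were higher and 0 lower, beside 23.3% and 15.9% of all features. The largest were the syntrophin Sntb1 (11.7 against 2.23 FPKM, log2 1.98), dystrophin itself, Dmd (68.2 against 22.5 FPKM, 1.56), and the sarcoglycan Sgcd (21.4 against 7.75 FPKM, 1.37). The list's median was 0.19, beside 0.07 over all features. With JIB-04 the counts were 10 and 0 at day 45, beside 20.5% and 18.1% of all features, and 8 and 3 at day 77, beside 19.9% and 22.1%. Dmd differed by 1.52 and 1.45.

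Of 21 tested basement membrane genes other than laminins, 6 were higher and 6 lower, beside the same 23.3% and 15.9%, with a median of 0.06, close to the 0.07 of all features. Nidogen 2, Nid2, which links laminin to collagen IV, was higher (19.7 against 6.97 FPKM, log2 1.37), as were the collagen IV chains Col4a5 (20.8 against 10.5, 0.94) and Col4a4 (2.59 against 1.32, 0.62). The peroxidase Pxdn, which crosslinks collagen IV, was lower (8.63 against 27.03 FPKM, log2 -1.54), and so were Papln (2.90 against 6.08, -0.86) and Tinagl1 (15.8 against 28.7, -0.82). With JIB-04 the counts were 5 and 6 at day 45, beside 20.5% and 18.1% of all features, and 7 and 5 at day 77, beside 19.9% and 22.1%.

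Of 43 tested integrin adaptors and focal adhesion genes, 13 were higher and 14 lower, beside 23.3% and 15.9% of all features, with a median of -0.03. Zyxin, Zyx, a focal adhesion protein that responds to tension, was higher (74.2 against 22.5 FPKM, log2 1.67), with Kank1 (34.3 against 10.4, 1.62) and Nedd9 (12.5 against 5.25, 1.12). The beta 1 binding protein melusin, Itgb1bp2 (73.9 against 124.6 FPKM, log2 -0.74), and Lims2 (25.004 against 41.2, -0.68) were lower. Of 29 other integrin ligands, 18 were higher and 6 lower, beside the same shares, with a median of 0.55. Osteopontin, Spp1, a ligand of Itga9 and Itgav, averaged 11.4 against 0.121 FPKM (log2 3.35), Tgfb3 93.4 against 5.77 (3.79) and Ctgf 203 against 21.01 (3.22). With that WT mean, Spp1 reached 1 FPKM in no WT vehicle library, so it passed the level of the test through other groups. Counts over genes at the level on both sides of a comparison were not made for the lists. Vitronectin, Vtn (5.62 against 18.01 FPKM, log2 -1.52), and Icam2 (10.4 against 22.5, -1.05) were lower. With JIB-04 the adaptors counted 12 and 12 at day 45 and 14 and 15 at day 77, and the ligands 15 and 6 of 29 and 16 and 6 of 27. All features stood at 20.5% and 18.1% at day 45 and at 19.9% and 22.1% at day 77.

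The second question was what JIB-04 did. In CnATg hearts at day 45, 0 of 22 members were called by limma (background 0.00753%) and 0 had an unadjusted p under 0.05 (background 4.4%). In CnATg at day 77, 0 of 21 were called (background 0%) and 0 had an unadjusted p under 0.05 (background 7.45%). In WT at day 45, 0 of 22 were called (background 0%) and 2 had an unadjusted p under 0.05 (background 4.33%), namely Itga3 (log2 0.18) and Lama5 (-0.37). The mean of the 3 drug differences gave 0 calls of 23 in either direction (background 0%) and 1 unadjusted (background 6.83%), Itga2b at -0.19. The 95% interval reached a median of 0.24 to 0.25 to either side in the single comparisons and 0.13 in their mean, on the log2 scale, so smaller changes could not be told from none.

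The members that differed most by genotype show the size of this limit. With JIB-04, Itgb1 lay at 255, 257 and 269 FPKM in CnATg at day 45, inside the spread of the vehicle hearts, and the drug difference was -0.01 (95% interval -0.13 to 0.12). For Itga7 the interval was -0.19 to 0.10 at day 45 and -0.12 to 0.17 at day 77, both well short of the genotype difference. Itga6 at day 77 lay at 8.60, 14.6, 11.4 and 13.6 FPKM with JIB-04 and 11.5, 18.3, 14.5 and 11.9 with vehicle, an overlap, with an interval of -0.60 to 0.18. Whether JIB-04 acted differently by genotype at day 45 was tested as an interaction: 0 of 22 members were called (background 0.00753%) and 1 had an unadjusted p under 0.05 (background 3.75%), Lamb3 at -0.30.

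The third question was age, day 77 minus day 45, in 3 groups that share no library. All age differences came from a fit of all 23 libraries and share its estimate of spread. In CnATg with vehicle 0 of 23 members were called by limma (background 0.0365%) and 7 had an unadjusted p under 0.05 (background 7.26%). In CnATg with JIB-04 it was 0 (background 0.0365%) and 9 (background 7.85%), and in WT with JIB-04 0 (background 0.328%) and 10 (background 15.1%). The mean of the 3 age differences, a contrast added after the single ones had been seen, called 6 members lower and 0 higher of 23, beside 1.15% lower and 0.992% higher among all 13710 features. An unadjusted p under 0.05 was reached by 14 of 23 (background 17.8%). The members' median was -0.12, beside 0.00 over all features.

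Lamb1 was lower by 0.40 in this mean (SE 0.06, limma adjusted p = 0.0020). In CnATg with vehicle it lay at 13.4, 16.1, 13.2 and 12.9 FPKM at day 77 and 17.5, 19.4 and 21.3 at day 45. In CnATg with JIB-04 it was 11.2, 13.9, 11.3 and 15.3 against 18.97, 16.8 and 19.9 FPKM, and in WT 23.02, 18.2 and 21.8 against 24.02, 25.5 and 26.1. Within each of these 3 groups the ages did not overlap. The single differences were -0.46, -0.50 and -0.26, and that with JIB-04 in CnATg was called without day 77 replicate 4 (-0.58, adjusted p = 0.039).

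Lama2 was lower by 0.40 as well (SE 0.07, limma adjusted p = 0.0037). It lay at 13.6, 13.4, 14.2 and 12.8 FPKM at day 77 and 21.9, 17.9 and 22.7 at day 45 in CnATg with vehicle, the largest of the 3 differences (-0.58), which was called without day 45 replicate 2 (-0.68, adjusted p = 0.034). With JIB-04 the values were 15.4, 16.1, 13.5 and 14.6 against 16.3, 24.3 and 21.1 FPKM in CnATg. In WT, 16.8, 21.6 and 18.4 FPKM overlapped with 20.7, 21.2 and 22.95.

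The other 4 were integrin alpha subunits. Itga9 differed by -0.32 (limma adjusted p = 0.0094), and in CnATg with vehicle lay at 19.7, 19.1, 19.5 and 19.9 FPKM at day 77 and 25.2, 24.4 and 24.5 at day 45. Itga8 differed by -0.30 (adjusted p = 0.019). It reached 1 FPKM in 6 libraries of day 45 and none of day 77, so it passed the level through the age where it was high. With no level set its adjusted p was 0.036, and 5 members were lower without it. Itga5 differed by -0.23 (adjusted p = 0.019) and Itga3 by -0.21 (adjusted p = 0.010). All 4 had a negative difference in each of the 3 groups. The Itga5 call was lost without CnATg vehicle day 45 replicate 3 (adjusted p = 0.052). After mitochondrial and hemoglobin genes were left out and the rest rescaled, Itga3, Itga5 and Itga9 were no longer called (adjusted p 0.0504, 0.0786 and 0.0604) and 3 members were lower.

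**Figure D4:**
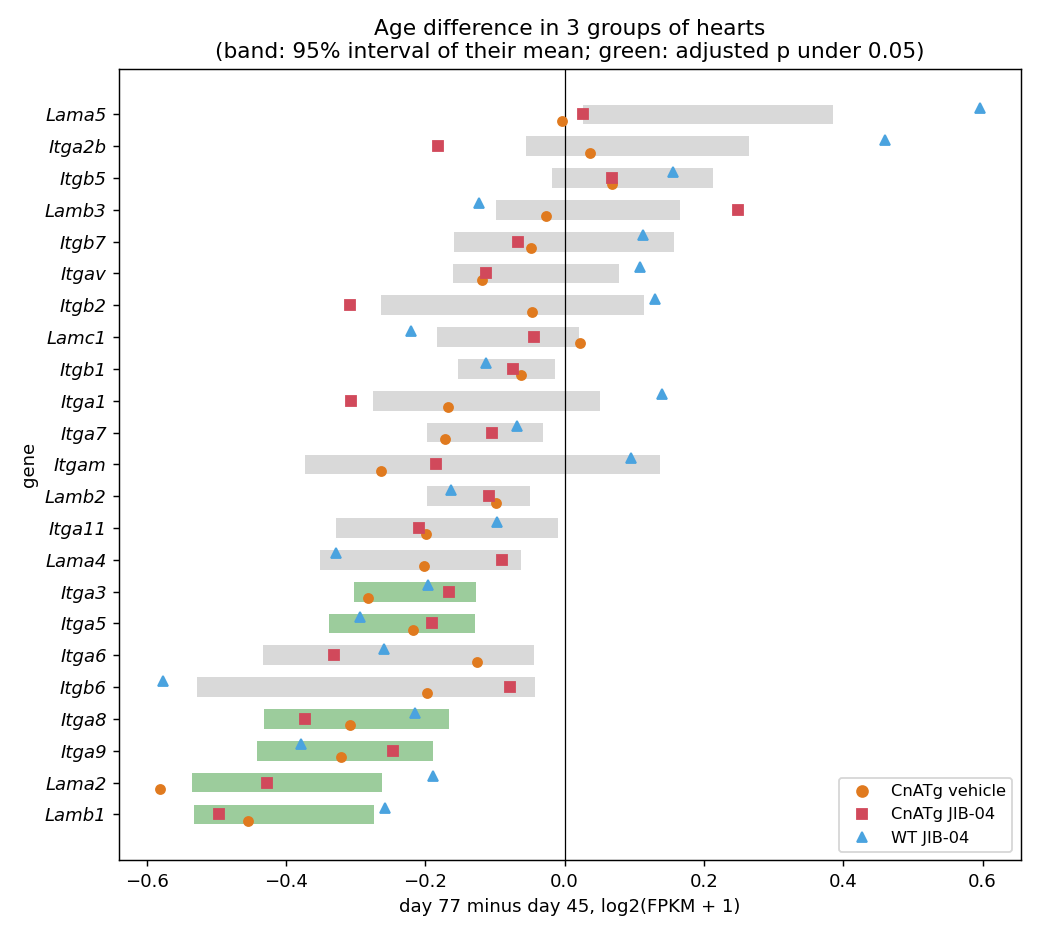
Day 77 minus day 45 on the log2(FPKM + 1) scale for each reported member in CnATg with vehicle, CnATg with JIB-04 and WT with JIB-04 (points), with the 95% interval of their mean (band; green where the limma adjusted p is under 0.05). The 6 green bands, Lamb1, Lama2, Itga9, Itga8, Itga5 and Itga3, lie left of 0, and all 3 points of each do too.

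In the same mean, 9 of 21 basement membrane genes and 10 of 29 other integrin ligands were lower and 0 higher (Nid1 counts in both), beside 1.15% and 0.992% of all features, with medians of -0.26 and -0.13. Nid2 differed by -0.38 and Pxdn by -0.34. Among adaptors 1 of 43 and among dystrophin complex genes 1 of 24 were lower. Summed fibroblast markers in CnATg with vehicle ran from 629 to 704 FPKM at day 45 and from 514 to 647 at day 77, and smooth muscle and pericyte markers from 589.6 to 659 and from 497 to 529.6. In the mean age difference, 2 of 10 fibroblast and 0 of 9 smooth muscle and pericyte markers were called lower. In both lists 0 were higher, beside the same shares of all features. Of the marker lists, the erythroid one had the largest median difference: 5 of 5 tested were higher at day 77 in this mean (median log2 1.65), and their sum in CnATg with vehicle ran from 1223 to 2982 FPKM at day 45 and from 4237 to 28307 at day 77. The rescaling above leaves hemoglobin genes out. The part of these markers in the age differences was not tested. Whether age acted differently by genotype under JIB-04 was tested as an interaction. There were 0 calls of 23 (background 0.00729%) and 4 members with an unadjusted p under 0.05 (background 6.91%), namely Itga2b (-0.64), Lama5 (-0.57), Itga1 (-0.45) and Lamb3 (0.37).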

How the data were processed

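RNA of whole mouse hearts was extracted with Trizol and sequenced from an mRNA kit that keeps no strand, per the labels' protocols. The submitters' processing notes name Cufflinks 2.2.1, GATK 4.1.2, STAR 2.7.1a and Picard, and the genome build GRCm38; the role of each step and the annotation are not given in the sources used here. The authors deposited 1 log2 FPKM value for each of 43154 features per library, per the file headers. With no negative values and exact zeros, these were read as log2(FPKM + 1) and used as deposited, and FPKM was computed back from them. In 6 files a blank line was dropped, and 3 mitochondrial features listed at 0 in part of the libraries were left out. Read depth is unknown, so no counting error is given. Symbols were used as deposited; positions are 1-based on GRCm38, and 26 of 36 members had the same locus in GENCODE M21.

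Groups were compared with limma 3.58.1 in R 4.3.3 by a two-sided moderated test with group means as the model and a variance prior that follows expression level. Calls are Benjamini-Hochberg adjusted p under 0.05 over all features that reached 1 FPKM in 3 or more of the libraries fitted. Fits used the libraries of 1 age, or all 23 for comparisons of age. The script was tested on simulated data. Every member past the level was named, and of each list the 3 called genes, or fewer, with the largest difference in each direction for genotype with vehicle. A member that enters no count of members, and 2 listed genes, are not reported here. Members and lists were chosen with earlier results of these data known. Alternatives were a pseudocount of 0.1, no filter or one of 6 libraries, median-ratio, quantile and mitochondria-free scaling, the contrast's groups alone, no trend, a replicate block and leaving out each library, and, added after the data were seen, counts over features at the level on both sides of a comparison. No libraries were duplicates: 0.21 to 0.60% of values were identical within groups, over 5823 features.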

Additional observations from a re-analysis of the deposited data

Results flagged for a closer look

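In each of the 46 sets of 4 libraries (23 members in the 2 groups of 4), the sample at either end was checked for its gap to the others, a check that chance passes in about 1 of 20 sets; 3 stood out. Itgb2, the beta subunit of leukocyte integrins, was at 3.44 FPKM in CnATg vehicle day 77 replicate 1, and at 2.05 to 2.19 FPKM in the other replicates, a gap of 0.901 of the range. Lamb1 was at 16.1 FPKM in CnATg vehicle day 77 replicate 2, and at 12.9 to 13.4 FPKM in the others (0.845 of the range). Itgb5 was at 45.4 FPKM in CnATg JIB-04 day 77 replicate 3, and at 54.3 to 54.9 FPKM in the others (0.931 of the range). The interactions of genotype with drug and with age gave no member to list.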

How the results depend on the processing

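Without the low-value filter, 10 members in place of 6 were higher in CnATg with vehicle at day 45, the added ones being Itgax, Itgb7, Itgb8 and Lamc3, which the filter keeps out. After rescaling to sums free of mitochondrial and hemoglobin genes, 12 members were higher and 2 lower with JIB-04 at day 45 (in place of 7 and 4), while all features went to 38.2% higher and 7.64% lower in place of 20.5% and 18.1%, and 3 in place of 6 were lower with age. Leaving out 1 library at a time gave 6 higher and 3 to 4 lower for genotype with vehicle, 7 to 8 and 3 to 4 with JIB-04 at day 45, 5 to 7 and 5 to 7 at day 77, 5 to 7 lower in the mean age difference, and 0 to 1 lower for age in CnATg with vehicle and in CnATg with JIB-04. Same-numbered libraries did not deviate together (correlations from -0.292 to 0.281 over 5000 features), so the numbers were not taken to pair them. With a replicate block, 6 members were higher and 4 lower with vehicle, 7 and 4 with JIB-04 at day 45, 5 and 5 at day 77, and 5 were lower with age. It took the calls of Itgav (adjusted p = 0.068) and Lama4 (0.078) at day 77 and of Itga8 with age (0.054). Without the filter, Itga1 at day 45 (0.064 with vehicle, 0.076 with JIB-04), Itgav (0.052) and Lama4 (0.15) at day 77 and Itga5 with age (0.066) lost their calls, as did Lama4 in a fit of its own 2 groups (0.072). No call of a member reversed, and every drug count stayed at 0. Where a count moved, the cause was not tested, apart from the filter. Read depth is unknown, so what it limits was not measured.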

Other observations

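Some pairs of members kept different proportions that the comparisons above do not show. Lama4, an endothelial laminin chain, came to 5.37 to 8.96% of the summed endothelial markers in CnATg (median 7.32%, 14 libraries). In WT it was 3.07 to 5.01% (median 4.14%, 9 libraries), without overlap, whereas Itga6, Itga1 and Lamb1 overlapped on that scale. Lama4 FPKM itself overlapped between genotypes, with 15.4 to 23.9 in CnATg and 12.1 to 22.1 in WT. The marker sum did not overlap (217 to 350.1 FPKM in CnATg and 395 to 478 in WT), and a share can move because the sum moves. The ratio of Lama5 to Lama2, the alpha chains of vessels and of muscle, was 0.947 to 1.35 in CnATg with JIB-04 at day 45 and 1.47 to 1.81 at day 77. In WT with JIB-04 it was 0.658 to 0.851 at day 45 and 1.22 to 1.63 at day 77, so the ages did not overlap in either genotype, while WT hearts with vehicle at day 45 lay at 0.956 to 1.31. The ratio of Itgb1 to Itgb5, the 2 most abundant beta subunits, had medians of 5.24 in CnATg (4.34 to 6.17) and 3.54 in WT (3.21 to 4.89), with overlap. Itga2, which lies 26037 bases from Itga1 and codes for another collagen receptor subunit, stayed at 0.172 FPKM or less in every library. These values were picked after they were seen and carry no test.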
